A study of Oryza sativa Japonica Group with 8 samples.

Results

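The 10 genes described here belong to brassinosteroid synthesis and signalling in rice. They were taken by identifier from the 55801 genes of the count and TPM tables: the synthesis genes D2, D11, BRD1 and DWF4, the receptor genes BRI1 and BAK1, the kinase gene GSK2, the transcriptional regulators BZR1 and DLT, and the helix-loop-helix gene BU1. RNA came from leaves of Nipponbare seedlings (Japonica rice) raised from sterilised seed on MS medium, a mineral salt medium, at 0.5 strength. The medium held carbon dots, which are carbon nanoparticles, at 0.56 mg/ml (CD, 2 libraries) or none (CK, the control, 2 libraries). Seedling age is given as 2 weeks in one label and as 3 weeks of growth in another. Nothing in the labels ties the replicates to separate plants or cultures, so every test measures only the spread between these libraries. The other 4 of the 8 samples are bisulfite sequencing samples and were not analysed here.

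Brassinosteroids are plant steroid hormones that promote cell elongation. In rice they set plant height and the angle at which the leaf blade bends away from the sheath. The hormone is built by a chain of cytochrome P450 enzymes and is bound outside the cell by the receptor kinase BRI1 with its co-receptor BAK1. Perception inactivates the kinase GSK2, which otherwise phosphorylates BZR1 and DLT. Active BZR1 then enters the nucleus, where in rice it represses hormone synthesis genes and DLT, while BU1 is induced by the hormone.

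The libraries held 49281927 to 80317398 counts. No 2 libraries agreed within sampling noise: the chi-square statistic of their counts was 81.6 to 223.8 per degree of freedom. CD replicate 2 differed more from CD replicate 1 (137.7) than from CK replicate 1 (116.4) or CK replicate 2 (125.2). On the leading principal component, with 51.9% of the variance, CD replicate 1 had a score of -58.6 against 4.8 to 38.7 for the other libraries. On the next component, with 29.7%, CD replicate 2 had -46.7 against 11.1 to 21.2. Leaf genes were abundant in all libraries, but the summed level of the 5 leaf markers was 5160 and 4840 TPM with carbon dots and 11000 and 16400 TPM in the control. Of these 5, 3 had both CD libraries below both control libraries, as did 20.7% of all genes tested. CAB1R and CAB2R overlapped (CAB2R had 1260 TPM in CD replicate 2 and 860 TPM in CK replicate 2). The RBCS gene LOC_Os12g17600 alone gave 3310 and 1960 TPM against 5110 and 12100 TPM of that sum. The other marker lists gave 30.0 and 34.0 TPM against 35.5 and 42.7 TPM for the 2 root transporters, 35.7 and 31.8 TPM against 28.9 and 30.6 TPM for the replication clamp PCNA, and 344 and 695 TPM against 550 and 361 TPM for the 3 secondary wall cellulose synthases. The meristem gene OSH1 had no count in either CD library, where its counts were 0 and 0, against 117 and 42 in the control. Whether these differences have a part in the values below was not tested, and in whole leaves fewer cells of a type and less RNA per cell cannot be told apart.

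All 10 genes were expressed and passed the filter on low counts. Levels between genes were compared as TPM, counts per gene length scaled to the same total in each library. BRI1 was the most abundant, with 73.0 and 77.9 TPM with carbon dots and 69.5 and 81.5 TPM in the control. Its lowest library lay above the highest library of BAK1, which ranged from 46.6 to 63.7 TPM and overlapped with BZR1 at 44.4 to 68.6 TPM. A middle group of BRD1, D2, GSK2, BU1 and D11 followed, with means over the 4 libraries from 27.3 down to 14.3 TPM, and each overlapped with its neighbour in this order. The place of BU1 rests on its short counted model of 264 bases, with 73 to 411 counts per library. BU1 has a longer span in the reference table used for names. DWF4 and DLT, which overlapped, formed the low end at 3.18 to 4.62 TPM and 2.28 to 3.38 TPM, below every library of the 8 genes above them. The perception genes thus stood above the 4 synthesis enzymes in every library, and DWF4 stood below the other synthesis enzymes.

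**Figure D1:**
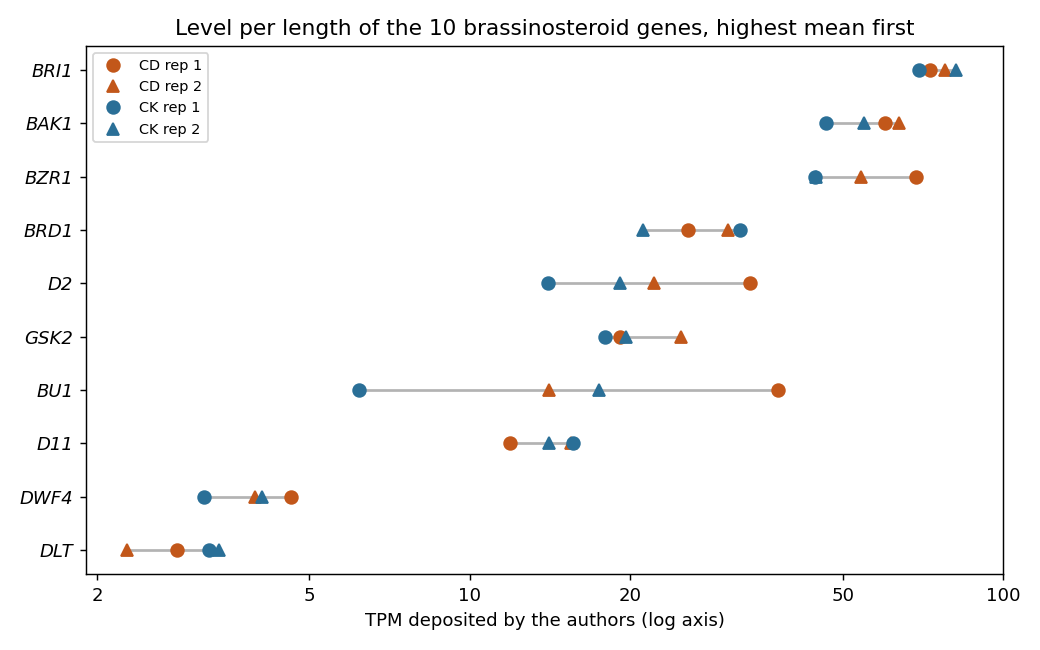
TPM of the 10 genes in each library on a log axis, ordered by the mean over the 4 libraries. The grey line spans the lowest to the highest library, which for BU1 ran from 6.21 to 37.9 TPM, the widest span of the 10, and for BRI1 from 69.5 to 81.5 TPM.

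The comparison of CD with CK asked whether expression of the pathway differs with carbon dots. Across the 10 genes no change was detected. D2 and BZR1 lay higher and DLT lower in both CD libraries than in both control libraries. The other 7 genes overlapped between the groups. By edgeR's quasi-likelihood test 0 of the 10 were called at an adjusted p under 0.05, as were 0% of the 26271 genes tested, and 0 had an unadjusted p under 0.05, where 3.33% of all genes lay higher and 5.37% lower. DESeq2 also called 0 of the 10, against 1.91% of all genes, and limma-voom called 0. Both CD libraries stood above both control libraries in 2 of the 10 genes, against 17.8% of all genes, and below in 1, against 20.7%. The count of genes that stood apart is therefore near the background. The median log2 fold change was 0.12, against 0.01 for all genes tested, with 6 genes above 0 and 4 below. Leaving out CD replicate 2 gave -0.01, CK replicate 1 gave 0.05 and CK replicate 2 gave 0.24.

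**Figure D2:**
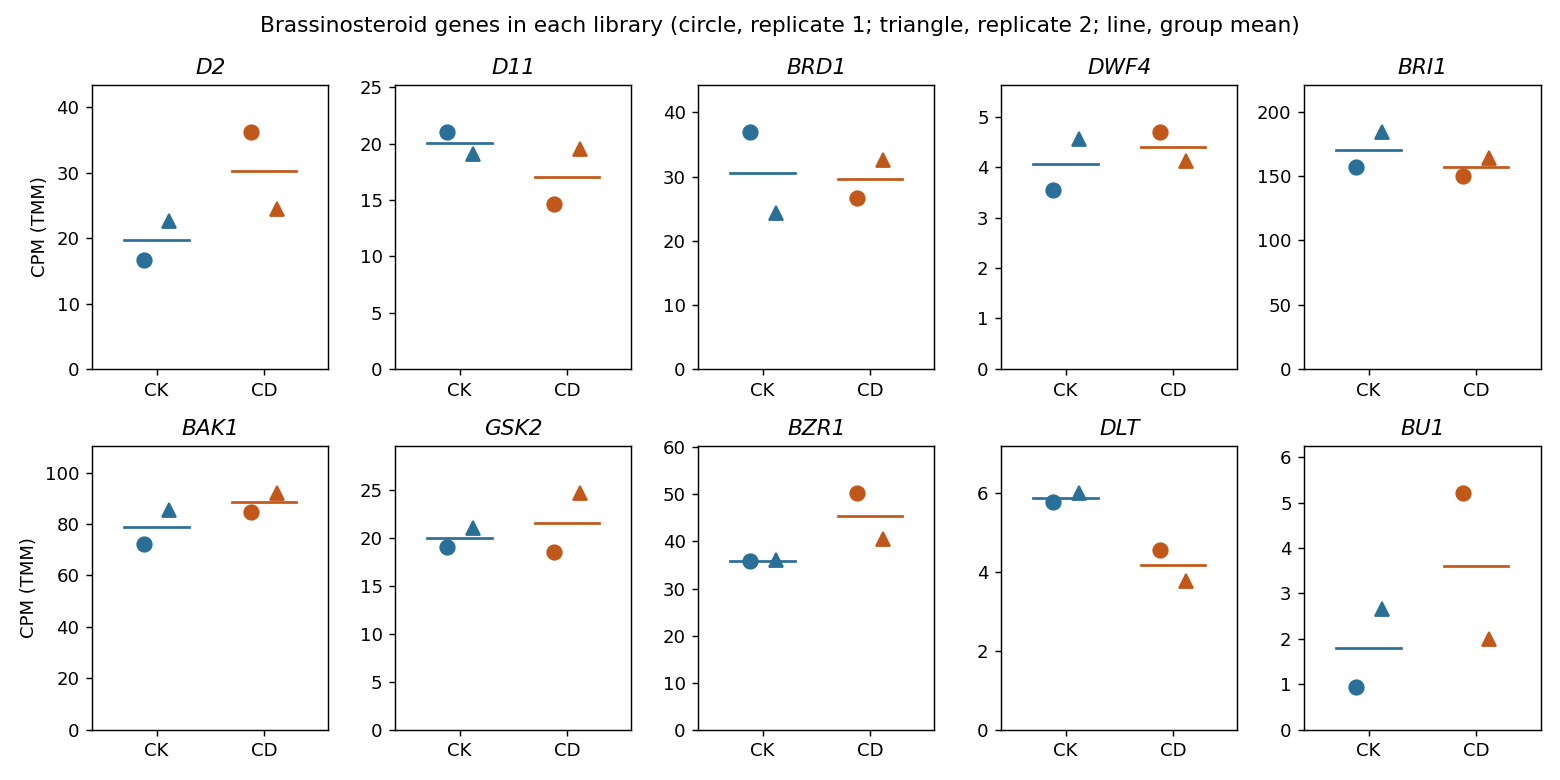
CPM, scaled with TMM factors, in the control (CK) and carbon dot (CD) libraries, one panel per gene with its axis from 0. Circles are replicate 1, triangles replicate 2 and lines group means. The groups stand apart for D2, BZR1 and DLT.

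Among the synthesis enzymes, D2 had the largest difference. D2 (LOC_Os01g10040, chromosome 1 from 5236623 to 5244520, plus strand) encodes CYP90D2, a P450 of the late steps. Its level was 36.2 and 24.5 CPM in the CD libraries, against 16.6 and 22.7 CPM in those of the control (30.3 ± 8.25 against 19.7 ± 4.35 CPM, SD, n = 2). CD replicate 1 was well above the rest, and CD replicate 2 lay close to CK replicate 2. The fold was 1.54, with a 95% interval of 0.957 to 2.49 and a log2 fold change of 0.63 ± 0.27 (SE). Its adjusted p of 0.595 by edgeR did not pass. The log2 fold change was 0.32 when CD replicate 1 was left out, 0.42 when CK replicate 1 was, and 0.88 when either of the other libraries was. Its gap between group means, 0.60 on the log2 scale, was little more than the 0.55 between the CD replicates.

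The other 3 synthesis enzymes overlapped between the groups. DWF4 (LOC_Os03g12660, chromosome 3 from 6737549 to 6744506, plus strand) encodes CYP90B2, and D11 (LOC_Os04g39430, chromosome 4 from 23467128 to 23471594, minus strand) encodes CYP724B1. Both enzymes hydroxylate the steroid side chain at an early step. DWF4 had 4.69 and 4.12 CPM against 3.55 and 4.56 CPM in the control, with all libraries near each other. D11 had 14.6 and 19.5 CPM against 21.0 and 19.1 CPM, with CD replicate 1 alone at the low end. The log2 fold changes were 0.12 ± 0.26 for DWF4 and -0.23 ± 0.21 for D11 (SE). Without single libraries they ranged from -0.04 (CK replicate 1 left out) to 0.32 (CK replicate 2 left out) for DWF4. For D11 they ranged from -0.46 (CD replicate 2 left out) to -0.04 (CD replicate 1 left out).

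BRD1 (LOC_Os03g40540, chromosome 3 from 22538341 to 22542520, plus strand) encodes CYP85A1, the oxidase that makes the active hormone castasterone. It had 26.7 and 32.6 CPM with carbon dots, both within the range of the control libraries at 36.9 and 24.3 CPM. The replicates of the control were further apart (0.59 on the log2 scale) than the group means (0.02). Its log2 fold change of -0.04 ± 0.25 (SE) had no stable sign. Leaving out CK replicate 1 gave 0.29, leaving out CK replicate 2 gave -0.31, and total count scaling gave 0.06. With that scaling the median of all genes also moved from 0.01 to 0.11. For the 4 enzymes the 95% intervals of the fold together reached from 0.592 (D11) to 2.49 (D2).

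The receptor genes were measured with the most counts. BRI1 (LOC_Os01g52050, chromosome 1 from 29927543 to 29931487, minus strand), the hormone-binding receptor kinase, had 8247 to 12206 counts per library. That gave 150.0 and 164 CPM with carbon dots against 157 and 184 CPM in the control. One CD library lay inside the control range and the other just below it. The fold was 0.920, with a 95% interval of 0.682 to 1.24. BRI1 had a log2 fold change of -0.12 ± 0.17 (SE), which moved to 0.00 without CK replicate 2 and on the TPM scale.

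BAK1 (LOC_Os08g07760, chromosome 8 from 4344171 to 4350502, plus strand), the co-receptor kinase, had 84.8 and 92.1 CPM against 72.3 and 85.3 CPM. CD replicate 1 lay just under CK replicate 2, so that the groups overlapped narrowly. With RLE, total count or TPM scaling BAK1 joined D2 and BZR1 with both CD libraries on the higher side. The fold of BAK1 was 1.12, with a 95% interval of 0.844 to 1.49. The log2 fold change was 0.17 ± 0.16 (SE), and it ranged from 0.06 (CK replicate 1 left out) to 0.30 (CK replicate 2 left out). BAK1 belongs to a family of similar receptor kinases, and how the counting treated reads shared between copies is not given in the sources used here.

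GSK2 (LOC_Os05g11730, chromosome 5 from 6657481 to 6661493, minus strand), the kinase that holds the pathway off, had 18.5 and 24.7 CPM in the CD libraries, against 19.1 and 21.0 CPM in those of the control. The CD libraries lay on either side of both control libraries. Its log2 fold change of 0.11 ± 0.20 (SE; 95% interval of the fold 0.754 to 1.54) was 0.30 when CD replicate 1 was left out and turned to -0.11 when CD replicate 2 was. Leaving out a control library gave 0.05 or 0.18.

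The regulators BZR1 and DLT, both targets of GSK2, stood apart between the groups in opposite directions. BZR1 (LOC_Os07g39220, chromosome 7 from 23483809 to 23485344, minus strand), the transcription factor at the end of the pathway, had 50.3 and 40.6 CPM with carbon dots. In the control it had 35.8 and 36.0 CPM, nearly the same value in both libraries. The means were 45.5 ± 6.82 and 35.9 ± 0.165 CPM (SD, n = 2). The fold was 1.27 with a 95% interval of 0.942 to 1.71, and the log2 fold change was 0.34 ± 0.17 (SE, adjusted p = 0.65 by edgeR). Leaving out a CD library gave 0.18 (replicate 1) or 0.48 (replicate 2), and leaving out a control library gave 0.34 or 0.35.

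DLT (LOC_Os06g03710, chromosome 6 from 1465499 to 1468600, minus strand) encodes a GRAS family regulator whose loss gives a dwarf plant with few tillers. It had 360 and 190 counts with carbon dots and 448 and 351 counts in the control, or 4.56 and 3.78 CPM against 5.77 and 6.01 CPM. Both CD libraries lay below both control libraries. The means were 4.17 ± 0.553 and 5.89 ± 0.174 CPM (SD, n = 2), a fold of 0.710 with a 95% interval of 0.471 to 1.07. Its log2 fold change was -0.50 ± 0.23 (SE, adjusted p = 0.633 by edgeR) and ranged from -0.64 without CD replicate 1 to -0.37 without CD replicate 2. DLT kept a negative sign, and D2 and BZR1 a positive one, in all 14 alternatives run, as did D11 (negative) and BAK1 and BU1 (positive), whose groups overlapped. All 14 reuse the same libraries, so a kept sign adds no separate evidence.

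BU1 (LOC_Os06g12210, chromosome 6 from 6556802 to 6557319, plus strand), a small helix-loop-helix protein that promotes leaf bending, had the largest estimated fold and the widest error. Its counted model of 264 bases gave 411 and 100 counts with carbon dots and 73 and 155 counts in the control, which is 5.21 and 1.99 CPM against 0.939 and 2.65 CPM. CD replicate 1 was the highest library and CK replicate 1 the lowest, while CD replicate 2 lay between the control libraries. Replicates differed 2.62-fold within CD. The fold of BU1 was 2.02 with a 95% interval of 0.602 to 6.79, and the log2 fold change was 1.02 ± 0.68 (SE, adjusted p = 0.774 by edgeR). Leaving out the first replicate gave 0.16 (CD) or 0.45 (CK), and leaving out the second gave 1.54 (CD) or 1.95 (CK). BU1 was the only one of the 10 whose replicates differed over 2-fold, in both groups; of all genes tested, 6.90% did so in CD and 2.51% in CK.

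**Figure D3:**
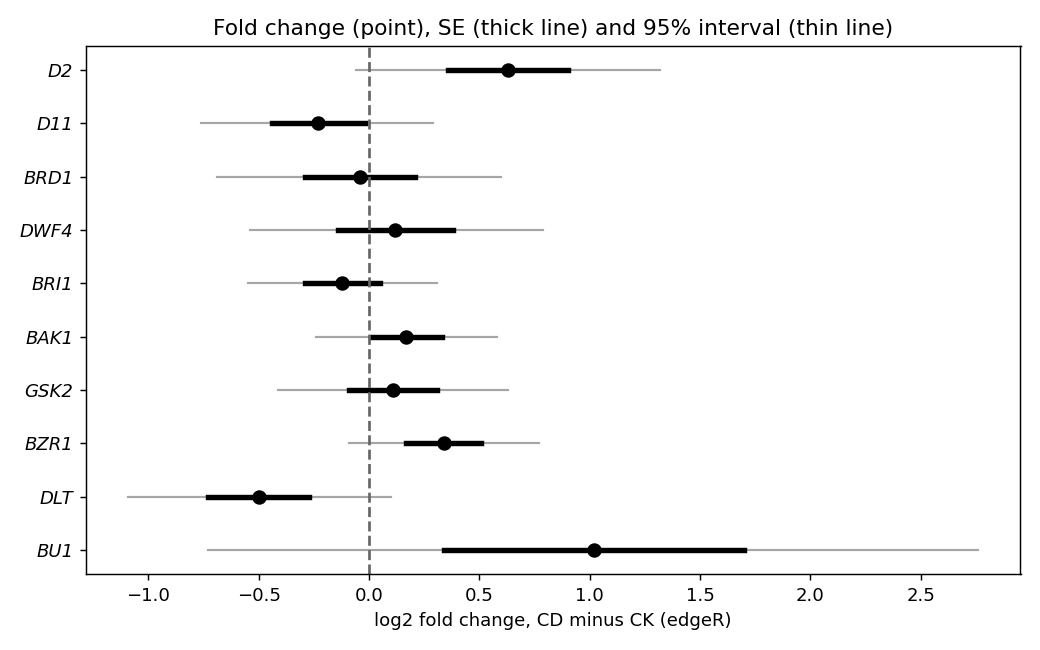
Log2 fold change, CD minus CK, of the 10 genes by edgeR, with SE as a thick line and the 95% interval as a thin line. Every interval spans 0; BRI1 and BAK1 have narrow intervals and BU1 the widest, from -0.73 to 2.76.

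**Figure D4:**
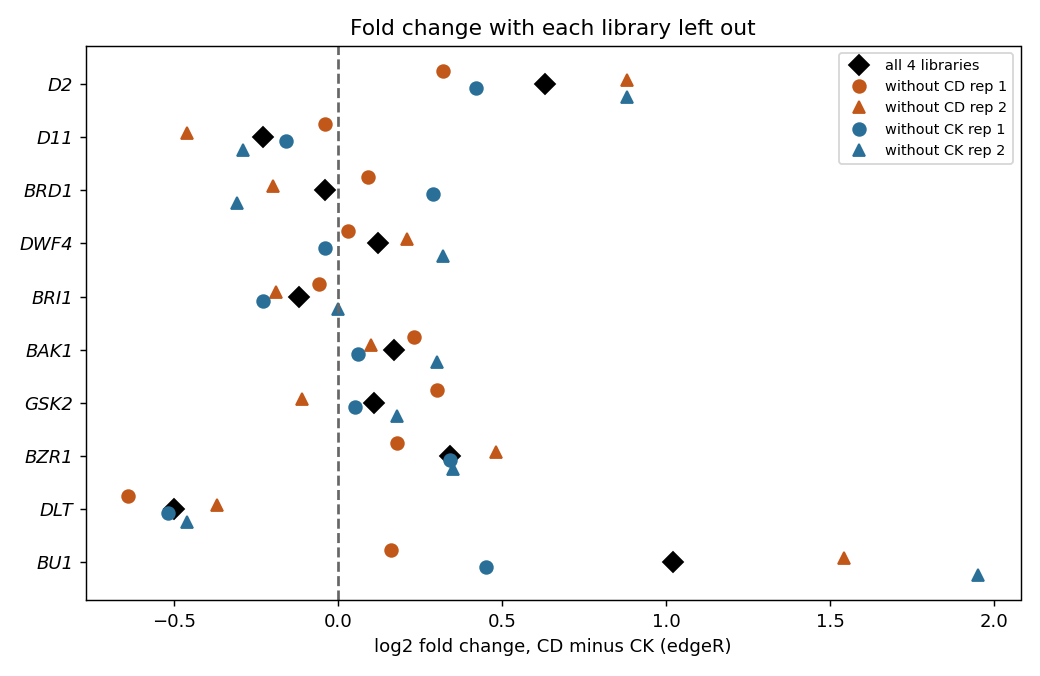
Log2 fold change of the 10 genes with all 4 libraries (diamond) and with each library left out. D2, BAK1, BZR1 and BU1 stay above 0 and D11 and DLT below 0, BRI1 reaches 0.00, and BRD1, DWF4 and GSK2 cross 0; BU1 spreads from 0.16 to 1.95.

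No library was high or low for all 10 genes. CD replicate 1 was the highest library for 4 of the 10 genes (D2, DWF4, BZR1 and BU1) and the lowest for 3 (D11, BRI1 and GSK2). Over all genes it was the highest for 29.3% and the lowest for 29.8%. CK replicate 1 was the lowest for 5 of the 10, against 25.7% of all genes. The median gap between replicates of the 10 genes was 0.29 (log2) in CD and 0.23 in CK, close to 0.27 and 0.20 over all genes. The group means lay further apart than the replicates of either group for D2, BZR1 and DLT, the 3 genes whose groups did not overlap. Both measures draw on the same values, so this adds no separate evidence. The share of all genes with such a gap was not counted.

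A further list of 36 entries covered the rest of the pathway, and 35 of its genes were tested. Here too 0 were called by edgeR, DESeq2 or limma-voom. At an unadjusted p under 0.05 by edgeR, 1 of the 35 was lower, against 5.37% of all genes, and 0 were higher, against 3.33%. Both CD libraries stood above both control libraries for 6 of the 35, against 17.8% of all genes, and below for 5, against 20.7%. These counts are not above the background. The median log2 fold change was 0.10, against 0.01 for all genes. Symbols of 14 entries could be matched to the reference table, and values below are for matched genes with the highest TPM in each role.

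In synthesis and breakdown, CPD2 and CPD1 encode P450s of the CYP90A family. CPD2 had 26.5 and 33.8 CPM against 31.9 and 32.2 CPM, and CPD1 had 12.1 and 10.5 CPM against 9.37 and 13.4 CPM, with both pairs of groups overlapping. They are close copies on chromosomes 12 and 11, and their reads may be split between them. CYP734A4 and CYP734A2 encode P450s that inactivate the hormone. CYP734A4 had 6.10 and 5.37 CPM against 4.50 and 3.43 CPM (log2 fold change 0.53 ± 0.26, SE, adjusted p = 0.643 by edgeR). CYP734A2 lay on the other side, with 54 and 4 counts against 76 and 129 counts (-2.00 ± 0.96). These 2 genes stood apart in opposite directions without passing the test. The list enters another gene in this role, LOC_Os01g29150, the 1 gene at an unadjusted p under 0.05 by edgeR. It had 7.59 and 9.63 CPM with carbon dots against 15.9 and 12.6 CPM (-0.73 ± 0.23, adjusted p = 0.51 by edgeR). Its listed name, CYP734A6, has a longer span in the reference table and was not counted as matched. Of the 3 tested inactivation entries, 1 had both CD libraries above both control libraries and 2 had both below. Over all genes these shares were 17.8% and 20.7%, and 3 entries are too few to set against them.

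In perception and signalling, log2 fold changes of the 4 matched genes ran from -0.39 (TUD1) to 0.26 (BRL1). BRL1, a receptor kinase related to BRI1, had 4.12 and 3.36 CPM against 2.65 and 3.63 CPM (0.26 ± 0.29). GSK4, a kinase of the same family as GSK2, had 116 and 125 CPM against 119 and 124 CPM (-0.02 ± 0.15). These groups overlapped, GSK4 within a narrow range. GF14C, a 14-3-3 protein that binds BZR1 in rice, had 297 and 326 CPM against 269 and 313 CPM (0.10 ± 0.18). TUD1, a ubiquitin ligase that acts with the G protein alpha subunit in this pathway, had 66.7 and 77.2 CPM against 85.3 and 103 CPM (-0.39 ± 0.17, adjusted p = 0.621 by edgeR). TUD1 was the one of these 4 whose groups did not overlap. With unmatched entries included, 2 of 3 receptor and 1 of 5 kinase entries had both CD libraries above both control libraries. Of the 5 entries under other signalling, 2 (TUD1 and LOC_Os05g26890) had both below. The 3 phosphatase entries overlapped. Over all genes 17.8% stood above and 20.7% below.

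In transcription, BZR2, a relative of BZR1, had 80.8 and 65.0 CPM against 60.3 and 68.1 CPM (0.18 ± 0.18). SMOS1, an AP2-type factor that interacts with DLT, had 35.0 and 49.4 CPM against 38.1 and 44.9 CPM (0.02 ± 0.22). BUL1, a helix-loop-helix relative of BU1, had 23.0 and 26.2 CPM against 18.0 and 27.1 CPM (0.13 ± 0.24). All 3 overlapped between the groups. BZR3, another relative of BZR1 that was picked after its values were seen, had 11.5 and 9.22 CPM against 8.02 and 8.29 CPM (0.35 ± 0.20, adjusted p = 0.724 by edgeR). Its groups stood apart in the same direction as those of BZR1, with a similar estimate. Whether BZR1 differs from BZR2 or BZR3 in its response was not tested.

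**Figure D5:**
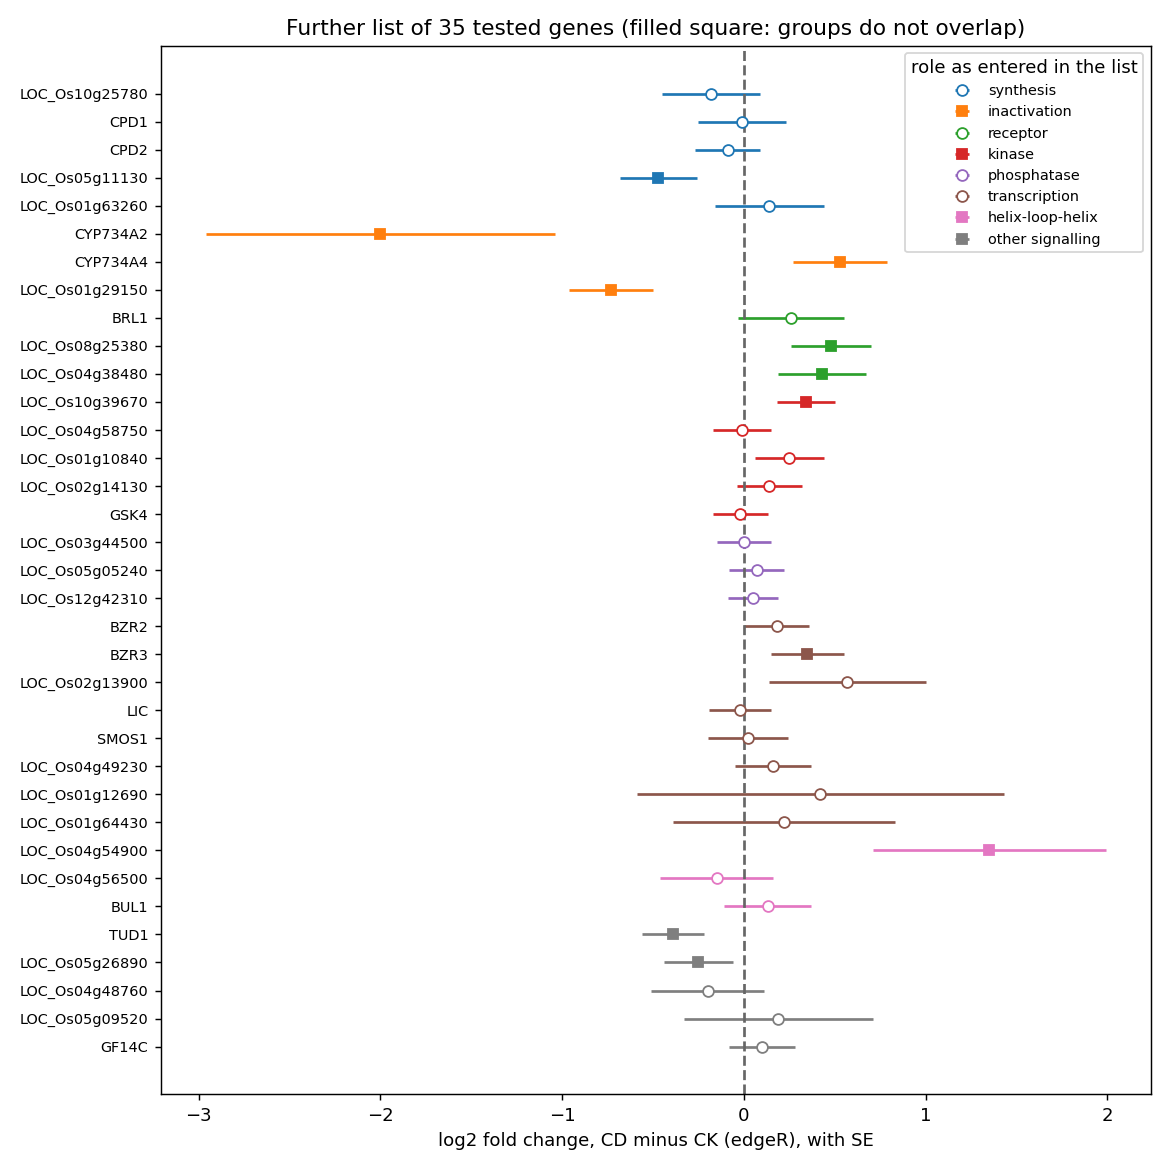
Log2 fold change, CD minus CK, with SE for the 35 tested genes of the further list, coloured by the role entered in the list; unmatched entries carry their identifier. Filled squares mark the 6 genes with both CD libraries above both control libraries and the 5 with both below.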

How the data were processed

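The authors deposited raw read counts, not normalized, in the layout of featureCounts per the file headers. TPM values were deposited by the authors too, and were recomputed from counts and gene lengths within a relative difference of 1.4e-07. The submitters' processing notes name fastp 0.21.0, HISAT2 2.0.5, SAMtools 1.9 and featureCounts 1.6.4, with no role. No build, annotation or strand setting is given in the sources used here. All positions were read from the count table.

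The groups were compared over all genes in R 4.3.3 with edgeR 4.0.16: TMM, filterByExpr (26271 of 55801 genes), quasi-likelihood F test, Benjamini-Hochberg at 0.05. SE is the absolute log2 fold change over the square root of F. The 95% interval uses the fit's degrees of freedom. Alternatives used DESeq2 1.42.0, limma 3.58.1 (voom, and trend on log2(TPM + 1) or log2(TPM + 0.1)), other scalings and filters, a replicate block and each library left out. The procedure was tested on counts simulated from the model fitted to these data, which cannot show whether that model holds for these libraries.

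Names came with the identifiers. In the reference table (assembly ASM3414082v1, names only), 8 of the 10 matched by symbol, chromosome and span within 1.3-fold, BU1 had a longer span and DLT no record. Members, lists and the rule for named genes (all 10 genes, and per role of the further list the 2 matched genes with the highest mean TPM) were chosen with earlier results of these data known. LOC_Os01g29150 and BZR3 were named after their values were seen.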

Additional observations from a re-analysis of the deposited data

How the results depend on the processing

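No alternative called any of the 10 genes, and their lowest adjusted p over all alternatives was 0.225 (D2 without CD replicate 2). Over all genes, edgeR without a filter called 29 and DESeq2 502, and the others 0. The count of the 10 at an unadjusted p under 0.05 went from 0 to 1 with total count scaling, no filter (D2 both times) or log2(TPM + 1) (BZR1), and to 2 with log2(TPM + 0.1) (D2 and BZR1). With 1 library left out it ranged from 0 to 2. The count of genes with the groups apart, 3, was 4 with RLE (also in DESeq2), total count or TPM scaling or the filter of 1 CPM in 2 libraries, and ranged from 5 to 8 with 1 library left out, where only 3 libraries need to be apart. The median log2 fold change was 0.22 with total count scaling and 0.23 with log2(TPM + 0.1), which moved the median of all genes to 0.11 and 0.12, and ranged from -0.01 to 0.24 with 1 library left out. BRD1 turned to 0.06 with total count scaling and 0.10 with either TPM fit. Its range with 1 library left out was -0.31 to 0.29, against -0.04 to 0.32 for DWF4 and -0.11 to 0.30 for GSK2. The labels do not say that replicate numbers pair the libraries, and deviations of libraries with the same number correlated at -0.204 across genes. The replicate block called 0 of the 10 and 0 of all genes, with a median of 0.11. A crossed replicate block, added after seeing the data, also called 0, with 2 of the 10 at an unadjusted p under 0.05. The causes of these shifts were not tested. With 2 libraries a group, the spread between libraries limits these estimates more than counting depth does, and a missed threshold does not show equal levels.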

Other observations

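In BU1 and in 2 further entries of the pathway list, LOC_Os01g12690 and LOC_Os01g64430, replicates differed in opposite directions in CD and CK. The names of these 2 could not be matched, and they were picked after their values were seen. BU1 had 5.21 and 1.99 CPM in CD replicates 1 and 2, and 0.939 and 2.65 CPM in CK replicates 1 and 2. LOC_Os01g12690 had 5.86 and 1.25 CPM in the CD replicates and 0.824 and 4.56 CPM in the CK replicates. LOC_Os01g64430 had 3.92 and 2.97 CPM in the CD replicates and 1.34 and 4.61 CPM in the CK replicates. In all 3 genes CD replicate 1 stood above CD replicate 2, CK replicate 2 stood above CK replicate 1, and CK replicate 1 was the lowest library. The highest was CD replicate 1 for BU1 and LOC_Os01g12690, and CK replicate 2 for LOC_Os01g64430. Their log2 fold changes between the groups were 1.02 ± 0.68, 0.42 ± 1.01 and 0.22 ± 0.61 (SE), so the spread within groups was as large as any difference between them. The same directions, with CK replicate 1 lowest, were also present in other genes, so they do not set these 3 apart. D2 had 36.2 and 24.5 CPM in the CD replicates and 16.6 and 22.7 CPM in the CK replicates. LOC_Os05g09520 of the list had 1.69 and 1.17 CPM in CD, and 0.759 and 1.76 CPM in CK. The share of all genes with this pattern was not counted. Why the replicates differed was not tested.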
